A study of Mus musculus with 6 samples.

Results

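The genes described here sense tissue damage and microbial products through interleukin-1, tumour necrosis factor and Toll-like receptors. They were taken by symbol from the table of gene counts: the ligands Il1a, Il1b and Tnf, the receptor antagonist Il1rn, the receptor subunits Il1r1 and Il1rap, the Toll-like receptors Tlr2 and Tlr4, the co-receptor Cd14 and the adaptor Myd88. All 10 symbols were found among 45706 genes, and all 10 passed the filter on low counts. Liver RNA came from 3 wild-type samples (WT 1 to WT 3) and 3 samples of mice labelled ENTPD-8 knockout (KO 1 to KO 3). Entpd8 encodes NTPDase8, a cell-surface enzyme that breaks down nucleotides outside cells, and the study asks what it does in liver ischemia. Per the labels, mice were bred in a pathogen-free facility at Charles River, while strain, sex, age, the way the gene was disrupted and any ischemia in these livers are not stated. Nor do the labels tie each sample to its own mouse, so the p-values reflect the spread among these samples, which may be technical. Where 3 values are given for a group, they are in the order of replicates 1, 2 and 3.

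Interleukin-1 alpha and beta bind the receptor subunit encoded by Il1r1, which then pairs with the accessory subunit encoded by Il1rap. The antagonist encoded by Il1rn occupies the same receptor without bringing in the accessory subunit. Toll-like receptor 4, with the co-receptor CD14 and the adapter MD-2 (Ly96), recognises lipopolysaccharide, and Toll-like receptor 2 recognises bacterial lipoproteins. All of these receptors carry the same intracellular signalling domain and recruit MyD88 and the IRAK kinases, which lead to NF-kappa-B. In liver, Kupffer cells and recruited neutrophils and monocytes are known sources of the ligands, while hepatocytes carry the interleukin-1 receptor and answer it with acute-phase proteins.

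Library totals ran from 32768774 to 46473531 counts, and the targeted gene Entpd8 had 876 to 2034 counts in wild-type and 15 to 52 counts in knockout libraries. The hepatocyte gene Alb had 1233380 to 2165164 counts in every library. On the second principal component of log2 CPM, which held 16.6% of the variance, WT 2 stood apart from WT 1 and WT 3. Mitochondrially encoded transcripts made up 6.52% to 8.34% of wild-type and 10.1% to 11.7% of knockout libraries.

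The 3 ligand genes had upstream windows free of annotated exons, as had Il1r1. The ligand windows are shown here because the ligands are the members with the largest fold differences. Each sequence is the 250 bases before the RefSeq start in GRCm38.p6, written on the transcribed strand, with motif matches in capitals. Il1a lies at chr2:129309973-129310222, Il1b at chr2:129371140-129371389 and Tnf at chr17:35202008-35202257, all on the minus strand.
Il1a: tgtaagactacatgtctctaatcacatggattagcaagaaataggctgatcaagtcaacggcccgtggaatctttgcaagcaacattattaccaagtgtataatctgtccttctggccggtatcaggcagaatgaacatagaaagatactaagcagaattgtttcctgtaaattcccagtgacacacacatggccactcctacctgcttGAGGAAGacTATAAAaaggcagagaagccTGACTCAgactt
Il1b: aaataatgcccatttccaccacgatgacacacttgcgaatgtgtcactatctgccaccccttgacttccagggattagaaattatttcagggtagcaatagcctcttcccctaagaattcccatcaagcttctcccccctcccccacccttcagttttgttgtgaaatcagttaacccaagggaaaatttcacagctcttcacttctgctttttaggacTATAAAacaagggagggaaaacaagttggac
Tnf: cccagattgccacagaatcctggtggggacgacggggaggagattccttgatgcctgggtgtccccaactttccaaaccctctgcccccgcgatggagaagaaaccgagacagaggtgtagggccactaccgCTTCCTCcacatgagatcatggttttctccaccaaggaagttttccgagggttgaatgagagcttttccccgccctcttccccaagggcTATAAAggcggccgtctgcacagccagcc
Each of the 3 windows holds TATAAA on the transcribed strand, beginning 32 bases before the start in Il1a, 31 in Il1b and 29 in Tnf. This motif was added after the sequences were seen, and on either strand it is in 12.4% of 32851 RefSeq windows of the same length, that of Myd88 among them. Il1a also holds the AP-1 motif TGANTCA, found in 6.75% of windows, ending 6 bases before the start, and so does the first of the Il1rn windows. The PU.1 motif GAGGAAG, in 10.6% of windows, is in Il1a and, on the other strand, in Tnf. The NF-kappa-B consensus, in 7.25% of windows, matched none of these 3 windows; among the other members it matched that of Tlr2 and the second of Il1r1. The motifs TTGCNNAA (C/EBP, in 9.56% of windows) and TGACGTCA (CRE, in 1.55%) were also searched on both strands, and of these only TTGCNNAA was found, in the first window of Il1r1. The second NF-kappa-B match of Tlr2 overlaps its first. The Il1rap window had a GC content of 74.4%, against 42.4% for Il1a, 44.4% for Il1b, 57.6% for Tnf and a median of 52.4% over all windows. A match is a run of letters and shows no binding. The sequence table had no entry for Tlr4, and the window of Cd14 was not used.

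The comparison asked which of these genes differed between knockout and wild-type livers. Il1a and Il1rap rose in knockout livers, Tnf came just short of the threshold, and the 7 other genes did not pass. Of the 10 members, 2 were higher and 0 lower at an adjusted p under 0.05 (edgeR quasi-likelihood test with Benjamini-Hochberg adjustment over 14069 genes). Among all genes tested, 9.80% were higher and 10.6% lower by the same rule, or 20.4% in either direction, so a count of 2 in 10 is near the background. DESeq2 called 3 higher and 0 lower, limma voom 2 and 0, and at an unadjusted p under 0.05 the counts were 3 and 0. Over all 14069 genes, DESeq2 called 1895 higher and 1737 lower, and limma voom 1394 and 1406. These totals are also the background for the counts of these tools in the lists below. The share of all genes at an unadjusted p under 0.05 is not given here. The 3 knockout libraries lay above all 3 wild-type libraries for 3 members (Il1a, Il1rap and Tnf) and below them for 0, against 18.7% and 22.0% of all genes tested. Tnf was over the filter level in 1 wild-type and 3 knockout libraries. It was thus tested only through the group in which it was high. The median log2 fold change (knockout minus wild type) was 0.52 over the members and -0.02 over all genes tested.

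**Figure D1:**
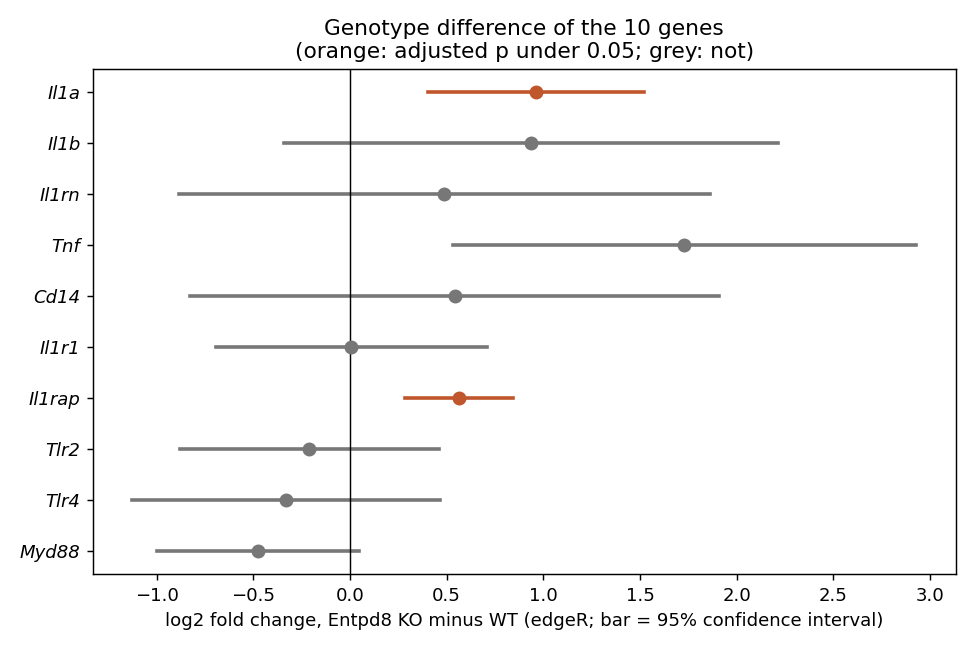
Log2 fold change of each gene (horizontal axis, knockout minus wild type) from edgeR over 3 and 3 libraries, with 95% confidence intervals. The intervals of Il1a, Il1rap and Tnf lie above 0, while the others cross it; Tnf is grey because its adjusted p was 0.0503.

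Il1a, the gene of interleukin-1 alpha, an alarmin released by dying cells, rose 1.95-fold. Its level in CPM (counts relative to the TMM-scaled library total) was 3.28, 2.61 and 3.39 in wild-type livers and 4.48, 7.75 and 5.87 in knockout livers. Every knockout library was above every wild-type library, and KO 2 was the highest. This was a log2 fold change of 0.96 ± 0.24 (SE), adjusted p = 0.0294 in edgeR. The values rest on 102 to 122 counts per wild-type and 176 to 311 per knockout library. The call was lost when any 1 library other than KO 1 was left out: adjusted p was 0.0676 without WT 1, 0.0578 without WT 2, 0.0502 without WT 3, 0.0904 without KO 2 and 0.0629 without KO 3 (edgeR). It was kept without KO 1, at an adjusted p of 0.0499, and the fold change was positive each time. Il1a (ENSMUSG00000027399) lies on chromosome 2 from 129299610 to 129309972, and Gm14023 on the other strand shares 222 exonic bases with it, with 3 to 16 counts per library.

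Il1b, the gene of interleukin-1 beta, which is secreted after cleavage by inflammasome caspases, lies 54597 bases from Il1a on the same strand (chromosome 2, 129364570 to 129371139). The antisense gene Il1bos shares 25 exonic bases with it and had 0 to 16 counts per library. The level of Il1b was 8.29, 2.25 and 1.97 CPM in wild-type livers and 5.93, 10.1 and 7.91 CPM in knockout livers. WT 1 lay within the range of the knockout libraries, while WT 2 and WT 3 lay below all of them. The log2 fold change of 0.94 ± 0.54 (SE) was close to that of Il1a, but the spread was wider, with a 95% confidence interval from -0.34 to 2.21 and adjusted p = 0.261 (edgeR). Without WT 1 it was 1.91 with adjusted p = 0.0157, and it did not pass without any other single library. The wild-type coefficient of variation was 85.6% for Il1b and 13.5% for Il1a, against 26.2% and 27.2% in knockout livers. The count ratio of Il1a to Il1b was 0.395, 1.16 and 1.72 in wild-type and 0.755, 0.766 and 0.742 in the knockout libraries. The knockout ratios thus lay within a narrow band that the wild-type ratios straddled.

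The summed level of neutrophil markers moved with Il1b across the libraries. Summed over 11 markers such as S100a8, S100a9 and Retnlg, they were 138, 45.4 and 21.5 CPM in wild-type livers and 91.7, 122 and 119 CPM in knockout livers. In this sum WT 1 was again high, and WT 2 and WT 3 were below every knockout library. S100a8 and S100a9 supplied 35.5 and 49.0 CPM of it in WT 1. Single markers differed among the knockout libraries. S100a8, S100a9, Ly6g, Mmp8 and Csf3r were highest in KO 2, as Il1b was. Retnlg and Cxcr2 were highest in KO 3, while Mmp9, Camp, Ngp and Ltf were lowest in KO 2. None of the 10 neutrophil markers tested passed in either direction (edgeR, DESeq2 and limma voom), and at an unadjusted p under 0.05 the counts were 0 and 0. Camp and Ngp were at 0 in WT 3, while the others were detected in every library. The 7 monocyte markers summed to 15.5 to 52.7 CPM in wild-type and 41.6 to 58.7 CPM in knockout libraries. In edgeR, 0 of 7 monocyte markers passed, while DESeq2 called 1 higher, limma voom called 0, and 1 was higher at an unadjusted p under 0.05. Hemoglobin transcripts, which come with blood, made up a larger share of every knockout than of every wild-type library (0.0997% to 0.145% against 0.0308% to 0.0486%), and WT 1 had the highest share of the wild-type libraries. The part of blood or of these cells in the Il1b values was not tested, and in whole liver fewer cells of a type and less RNA per cell cannot be told apart. Across the 6 libraries, the genes whose log2 CPM was most like that of Il1b, of 10447 compared, were Lsp1, Clec4e and Selplg, each with a Pearson correlation of 0.99; they share these libraries and their depth.

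**Figure D2:**
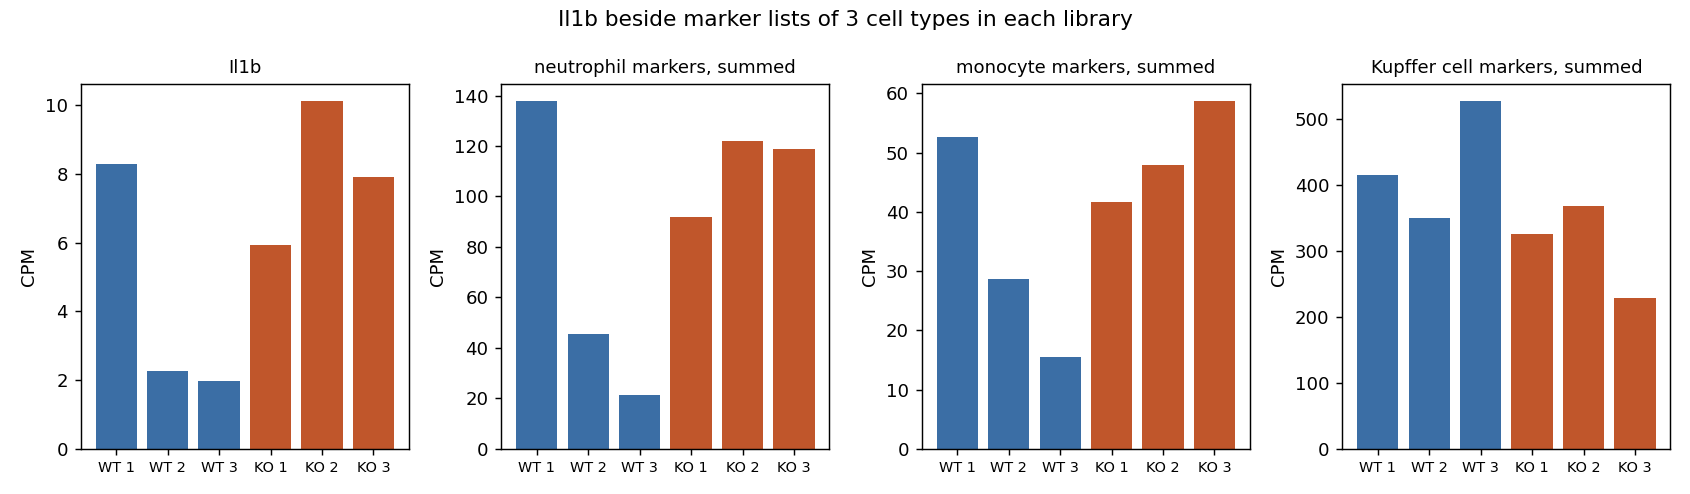
Level of Il1b and summed levels of neutrophil, monocyte and Kupffer cell markers in CPM (vertical axes) in each of the 6 libraries, blue for wild type and orange for knockout. WT 1 is high for Il1b and for neutrophil markers. The Kupffer cell sum is highest in WT 3, at 527 CPM, of which C6 supplied 286 CPM. Clec1b and Slc40a1 were also highest in WT 3, while Clec4f, Vsig4, Timd4, Cd5l, Marco, Cd163 and Folr2 were highest in WT 1.

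Of 10 markers of the resident Kupffer cells, 5 fell in knockout livers (Clec4f, Vsig4, Cd5l, Clec1b and Cd163) and 0 rose, where 10.6% of all genes were lower. Timd4, Marco, C6, Folr2 and Slc40a1 did not pass. The summed level of the 10 ran from 349 to 527 CPM in wild-type and from 229 to 368 CPM in knockout libraries, so the sums overlapped. C6, with a log2 fold change of 0.02, supplied 136 to 286 CPM of that sum. Taken singly, Clec4f, Vsig4, Cd5l, Marco, Clec1b and Cd163 were lower in every knockout than in every wild-type library. Timd4, C6, Folr2 and Slc40a1 overlapped. The share of all genes tested that lay wholly below was 22.0%. DESeq2 and an unadjusted p under 0.05 each gave 7 lower and 0 higher, and limma voom 4 and 0. Of 9 general macrophage markers 3 fell (Csf1r, C1qa and C1qb), with sums of 159 to 319 and 163 to 173 CPM. For the other cell types, given as markers higher and lower of those tested, the counts were 0 and 1 of 3 for dendritic cells, 1 and 0 of 2 for B and plasma cells, 1 and 0 of 6 for T and NK cells, 0 and 1 of 8 for sinusoidal endothelium, 0 and 1 of 8 for stellate cells, 2 and 0 of 5 for cholangiocytes and 1 and 0 of 8 for hepatocytes. The shares of all genes were 9.80% higher and 10.6% lower, and lists this short cannot be told from them by 1 call. The T and NK cell marker that passed, Cd3g, had 3 to 7 counts in wild-type and 16 to 19 in knockout libraries; it passed the filter only through the knockout group, and DESeq2 called 0 markers of that list higher. Every count of 0 among these lists and the macrophage list was also 0 in DESeq2, limma voom and at an unadjusted p under 0.05, except that the dendritic cell marker Zbtb46 was higher unadjusted. Summed levels in wild-type and knockout libraries were 6.48 to 8.86 and 6.31 to 11.3 CPM for dendritic cells, 0.666 to 1.60 and 7.23 to 11.3 for B and plasma cells, and 1.80 to 2.51 and 4.73 to 5.03 for T and NK cells. They were 165 to 198 and 124 to 178 CPM for sinusoidal endothelium, 177 to 236 and 113 to 241 for stellate cells, 80.5 to 109 and 122 to 312 for cholangiocytes, and 54484 to 71311 and 62348 to 80571 for hepatocytes. The dendritic cell markers Xcr1 and Cd209a were at 0 in some libraries and no marker was at 0 in all 6. The part of any of these cells in the ligand or receptor values was not tested.

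Tnf, the gene of tumour necrosis factor, had the largest fold difference and the lowest level of the 10 genes. Its counts were 13, 4 and 8 in wild-type livers and 19, 44 and 33 in knockout livers. Wild-type livers averaged 0.228 ± 0.128 CPM (SD, n = 3) and knockout livers 0.758 ± 0.312 CPM (SD, n = 3). The groups did not overlap. Its log2 fold change was 1.73 ± 0.52 (SE), with a 95% confidence interval from 0.53 to 2.93 and adjusted p = 0.0503, so the gene did not pass in edgeR. It stood over the level of the low-count filter in all 3 knockout libraries and in 1 wild-type library, so its place among the genes tested came from the group in which it was high. Across alternatives the adjusted p ran from 0.0237 (DESeq2) to 0.153 (without KO 2), and 4 of 16 alternatives that kept the gene passed. Tnf (ENSMUSG00000024401) lies on chromosome 17 from 35199381 to 35202007.

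**Figure D3:**
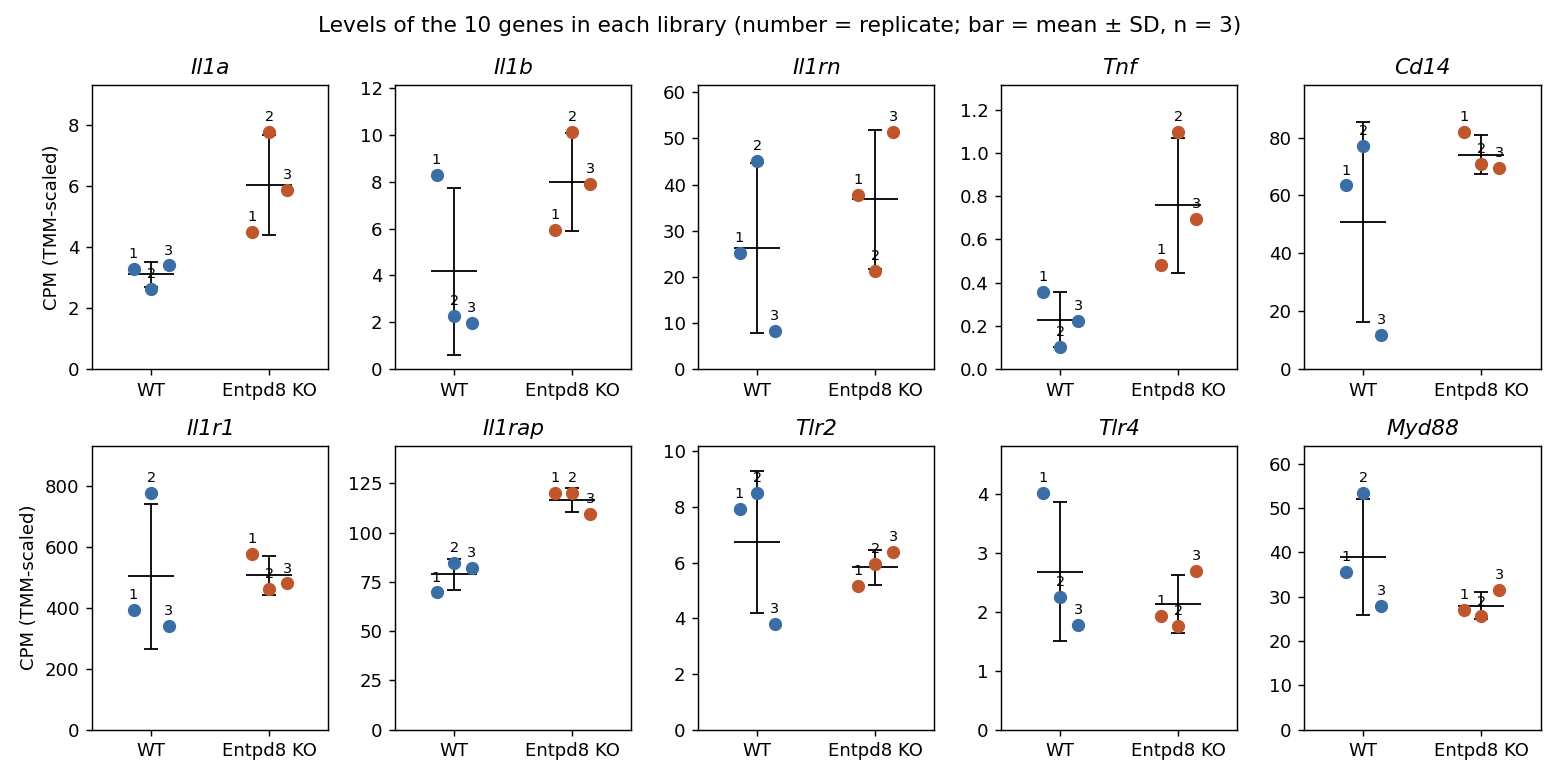
Level of each gene in TMM-scaled CPM (vertical axes, each from 0) in the 3 wild-type (blue) and 3 knockout (orange) libraries, numbered by replicate, with mean and SD. The groups are apart for Il1a, Tnf and Il1rap, and WT 3 is the lowest of all libraries for Cd14, at 11.9 CPM.

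Il1rn, the gene of the receptor antagonist, was more abundant per length than the ligands it opposes but did not pass. Its level was 25.2, 45.1 and 8.33 CPM in wild-type livers and 37.8, 21.2 and 51.3 CPM in knockout livers. Both groups spread widely and overlapped, with WT 3 the lowest library. Its log2 fold change was 0.49 ± 0.58 (SE), with a 95% confidence interval from -0.89 to 1.86 and adjusted p = 0.588 (edgeR). In counts, the ratio of Il1rn to Il1b was 3.03, 20.0 and 4.23 in wild-type livers and 6.37, 2.09 and 6.49 in knockout livers. WT 2 had the highest ratio, and the groups overlapped. Il1rn (chromosome 2, 24336853 to 24351494) lies 728809 bases from the disrupted Entpd8, and the table gives no count by isoform, so its secreted and intracellular forms were not told apart.

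Il1rap, the accessory subunit without which the interleukin-1 receptor does not signal, rose 1.48-fold. It was at 69.6, 84.6 and 82.2 CPM in wild-type livers and at 120.1, 120.0 and 110 CPM in knockout livers. The groups were well apart and each was tight, with coefficients of variation of 10.2% and 5.20%. With a log2 fold change of 0.56 ± 0.12 (SE), the adjusted p was 0.0178 (edgeR). It did not pass when WT 1 (adjusted p = 0.0533), KO 1 (0.0956) or KO 2 (0.0527) was left out, with log2 fold changes between 0.48 and 0.55. Il1rap lies on chromosome 16 from 26581704 to 26730117. Gm20319 on the other strand shares 552 exonic bases with it, 4.86% of its exons, and had 507 to 687 counts in wild-type and 1146 to 1239 counts in knockout libraries. Whether the counting used strand is not stated, so reads of the shared bases cannot be told apart.

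Il1r1, the ligand-binding subunit, had the highest level of the 10 genes and nearly the same mean in both groups. It was at 392, 776 and 342 CPM in wild-type livers and at 577, 460 and 479 CPM in knockout livers. WT 2 was the highest library and WT 3 the lowest, and all knockout libraries lay between WT 1 and WT 2. For Il1r1 the log2 fold change was 0.01 ± 0.30 (SE), with a 95% confidence interval from -0.69 to 0.71 and adjusted p = 0.989 (edgeR). Its sign changed with the scaling and with the libraries kept, and without WT 2 it was 0.46 (adjusted p = 0.0830). Most like Il1r1 in log2 CPM over the 6 libraries were Exosc1, Ppme1 and Taf3, each with a Pearson correlation of 0.99. Il1r1 (ENSMUSG00000026072) lies on chromosome 1 from 40225080 to 40317257.

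The Toll-like receptors and their partners did not pass. Tlr2 was at 7.94, 8.51 and 3.804 CPM in wild-type livers and at 5.17, 5.96 and 6.39 CPM in knockout livers. Its log2 fold change was -0.21 ± 0.29 (SE, 95% confidence interval -0.88 to 0.46, adjusted p = 0.643, edgeR). Tlr4, the lipopolysaccharide receptor, was at 4.02, 2.25 and 1.78 CPM in wild-type and 1.93, 1.77 and 2.69 CPM in the knockout libraries. Only WT 1 stood out for Tlr4, and the log2 fold change of -0.33 ± 0.35 (SE, 95% confidence interval -1.13 to 0.47, adjusted p = 0.534, edgeR) became 0.08 without it. The count ratio of Tlr2 to Tlr4 overlapped between the groups, from 1.97 to 3.77 in wild-type and 2.38 to 3.37 in knockout libraries. The genes most like Tlr4 over the 6 libraries were Tagln2, Aldh18a1 and Ddr1, with Pearson correlations of 0.98, 0.97 and 0.96. Tlr2 lies on chromosome 3 from 83836272 to 83841767 and Tlr4 on chromosome 4 from 66827584 to 66930284.

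Cd14, which hands lipopolysaccharide to Toll-like receptor 4, varied more among wild-type livers than between the groups. It was at 63.4, 77.2 and 11.9 CPM in wild-type livers and at 81.8, 70.9 and 69.5 CPM in knockout livers. WT 3 alone was low, and the other wild-type libraries were near the knockout libraries. Cd14 had a log2 fold change of 0.54 ± 0.58 (SE, 95% confidence interval -0.82 to 1.91, adjusted p = 0.543, edgeR), which was 0.07 without WT 3. The count ratio of Cd14 to Tlr4 was 15.8, 34.2 and 6.67 in wild-type and 42.3, 40.1 and 25.8 in the knockout libraries.

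Myd88, the adaptor shared by interleukin-1 and most Toll-like receptors, was at 35.7, 53.4 and 27.9 CPM in wild-type livers. In knockout livers it was at 27.0, 25.6 and 31.5 CPM, lower on average but overlapping. Its log2 fold change was -0.48 ± 0.23 (SE, 95% confidence interval -1.0002 to 0.04, adjusted p = 0.171, edgeR), and -0.18 without WT 2. Myd88 lies on chromosome 9 from 119335934 to 119341411. Acaa1a on the other strand shares 290 exonic bases with Myd88, 11.3% of its exons, and had 4586 to 8242 counts per library.

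For 9 of the 10 members the coefficient of variation was larger in wild-type than in knockout livers, Il1a being the exception. The same held for 61.6% of all genes tested. The median coefficient of variation of the members was 45.7% in wild-type and 17.7% in knockout livers, against 16.4% and 12.6% over all genes. The highest wild-type library exceeded the lowest by more than 2-fold for 7 of 10 members and for 18.5% of all genes. WT 1 was the highest wild-type library for Il1b, Tnf and Tlr4, WT 2 for Il1rn, Il1r1, Il1rap, Tlr2, Cd14 and Myd88, and WT 3 for Il1a.

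Per kilobase of transcript, Il1r1, Myd88, Cd14, Il1rap and Il1rn stood above the ligands and the Toll-like receptors. In wild-type livers Il1r1 led with 94.5 ± 44.7 CPM per kilobase (SD, n = 3), followed by Myd88 (33.3), Cd14 (31.0), Il1rap (21.8) and Il1rn (19.0), then Il1b (3.08), Tlr2 (2.24), Il1a (1.57), Tlr4 (0.904) and Tnf (0.147). The ranges of libraries overlapped between neighbours in this order except between Il1r1 and Myd88 and between Tlr4 and Tnf. In knockout livers the order was Il1r1 (94.96), Cd14 (45.1), Il1rap (32.2), Il1rn (26.7), Myd88 (23.9), Il1b (5.89), Il1a (3.06), Tlr2 (1.94), Tlr4 (0.717) and Tnf (0.489). There Il1rap, Il1rn and Myd88 overlapped, as did Tlr4 and Tnf, while the other neighbours did not. The order rests on the mean length of protein-coding transcripts, and with the union of all exons, Myd88 ranked above Il1rap in knockout livers and below Cd14 in wild-type livers, Tlr2 above Il1b in wild-type livers and Tnf above Tlr4 in knockout livers.

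The other genes of the pathway were read from 7 lists, ordered by role. Of 144 genes, 143 were matched and 130 tested, of which 31 rose and 14 fell in knockout livers, with a median log2 fold change of 0.03. The 14 of 130 that fell are at the background, since 10.6% of all genes were lower. Calls in the upward direction were most frequent among restraining proteins and target genes, where 7 of 21 and 17 of 36 tested genes rose, against 9.80% of all genes. The lists were chosen with earlier results of these data known, so these counts describe the lists and test nothing. Among the target genes, Il6 and Il10 passed the filter through the knockout libraries, so only a rise could be called for them.

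**Figure D4:**
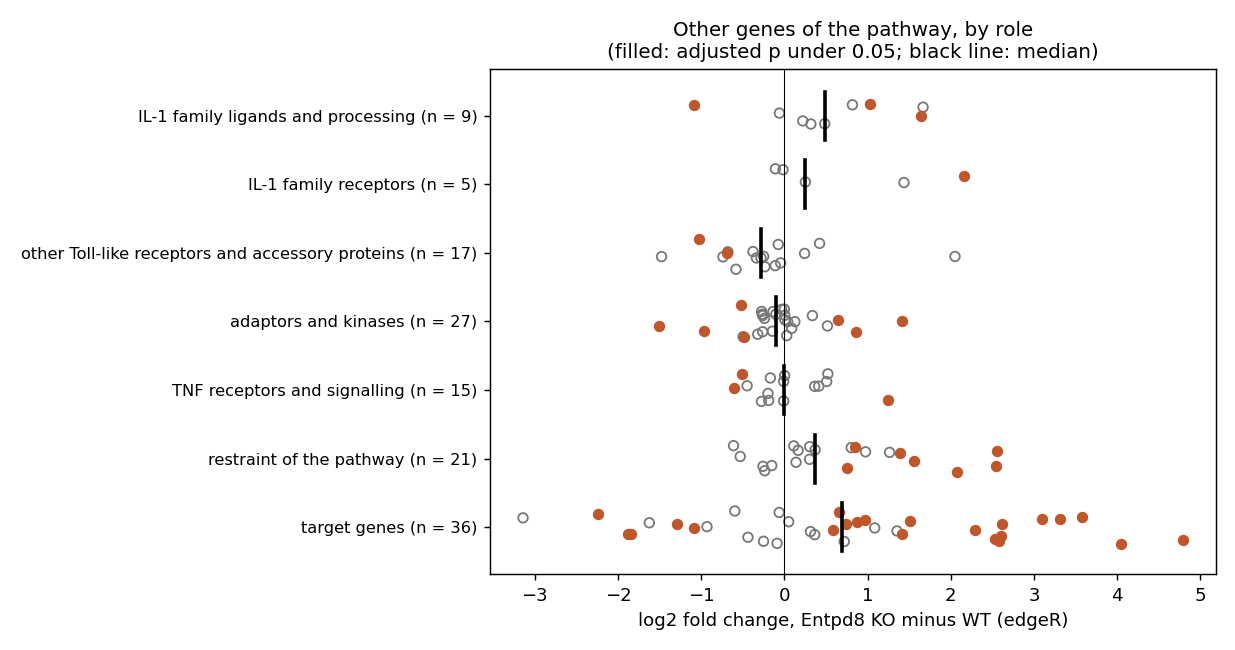
Log2 fold change (horizontal axis, knockout minus wild type, edgeR) of each tested gene of 7 pathway lists (rows), filled where the adjusted p was under 0.05, with the median as a black line. The target genes spread furthest, with a median of 0.69, and hold called genes on both sides of 0.

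Among interleukin-1 family ligands and processing genes, 2 of 9 tested rose and 1 fell, with a median log2 fold change of 0.48. The shares of all genes were 9.80% higher and 10.6% lower, so the count that fell is near the background. DESeq2 called 2 higher and 1 lower, limma voom 1 and 1, and the unadjusted counts were 3 and 1. Il18, the gene of interleukin-18, rose by 1.03 ± 0.28 (log2, SE, adjusted p = 0.0376), while Il18bp, which neutralises that cytokine, fell by 1.09 ± 0.19 (adjusted p = 0.0103). Casp4, the caspase that senses intracellular lipopolysaccharide, rose from 1.99 ± 0.904 to 6.22 ± 0.627 CPM (SD, n = 3 per group), a log2 fold change of 1.64 ± 0.35 (SE) with adjusted p = 0.0173 (edgeR). Il18 lost its call in limma voom and without WT 1, WT 3, KO 1 or KO 2, where the adjusted p reached 0.121, while Il18bp and Casp4 lost theirs without KO 1 (adjusted p up to 0.0617).

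Among the other interleukin-1 family receptors, 1 of 5 tested rose and 0 fell (DESeq2 and limma voom 2 and 0, unadjusted 2 and 0), with a median log2 fold change of 0.25. Over all genes 9.80% were higher and 10.6% lower in edgeR. The receptor gene called in edgeR was Il18rap, the accessory subunit of the interleukin-18 receptor, at 2.16 ± 0.48 (log2 fold change, SE, adjusted p = 0.0213). The decoy receptor Il1r2, which binds interleukin-1 without signalling, was at 5.29, 4.20 and 1.17 CPM in wild-type livers and at 7.33, 12.9 and 8.71 CPM in knockout livers. The knockout libraries of Il1r2 lay above all wild-type libraries, but the log2 fold change of 1.44 ± 0.49 (SE) had an adjusted p of 0.0813 in edgeR. The inhibitory receptor Sigirr had a log2 fold change of -0.11 (adjusted p = 0.694). Il18rap lost its call without any 1 of the knockout libraries (adjusted p up to 0.0712), and Il1r2 passed in DESeq2, limma voom and without WT 3.

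Of the other Toll-like receptors and accessory proteins, 0 of 17 tested rose and 2 fell in edgeR, with a median log2 fold change of -0.28, where 10.6% of all genes were lower. DESeq2 called 1 higher, limma voom 0, and 1 was higher at an unadjusted p under 0.05. Lbp, a hepatocyte protein that delivers lipopolysaccharide to CD14, fell from 172 ± 30.05 to 84.2 ± 9.12 CPM (SD, n = 3 per group). The log2 fold change of Lbp was -1.03 ± 0.16 (SE), adjusted p = 0.00676 (edgeR), and it passed in all 17 alternatives. Tlr3, the endosomal receptor for double-stranded RNA, had a log2 fold change of -0.69 ± 0.18 (SE, adjusted p = 0.0307) and lost its call whenever 1 library other than WT 2 was left out (highest adjusted p 0.105). Ly96, the lipopolysaccharide-binding partner of Toll-like receptor 4, had -0.07 (adjusted p = 0.843).

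Of the adaptors and kinases, 3 of 27 tested rose and 4 fell, with a median log2 fold change of -0.10. Both counts are near the shares of all genes, 9.80% higher and 10.6% lower. Among the IRAK kinases that follow MyD88, Irak2 rose by 0.86 ± 0.15 (log2, SE, adjusted p = 0.0104), Irak4 fell by 0.96 ± 0.17 (adjusted p = 0.00994), and Irak1 had a log2 fold change of 0.03 (adjusted p = 0.879). Irak2 was at 18.5, 25.5 and 27.3 CPM in wild-type livers and at 44.6, 43.7 and 41.4 CPM in knockout livers. Irak4 was at 16.9, 16.5 and 12.9 CPM in wild-type and at 7.48, 7.03 and 9.25 CPM in the knockout libraries. Neither gene's groups overlapped, and both lost their call without KO 1 (adjusted p up to 0.0555). Map3k8, the kinase that passes the signal to ERK, rose by 1.42 ± 0.20 (adjusted p = 0.00498) and the ubiquitin ligase gene Peli1 by 0.65 ± 0.12 (adjusted p = 0.0118). Tab2 (-0.52) and Ikbkg (-0.49), which link TAK1 and the IkappaB kinase complex to ubiquitin chains, fell (adjusted p = 0.0421 and 0.0211); the fourth gene that fell, Sarm1, was too low for the naming rule and is given after its values were seen. Traf6 (log2 fold change 0.00, adjusted p = 0.993), Tirap (-0.14, adjusted p = 0.594) and Ticam1 (-0.27, adjusted p = 0.382) did not pass. Peli1 lost its call without KO 1 (adjusted p = 0.0669), Ikbkg without WT 1, KO 1 or KO 2 (highest adjusted p 0.103) and Tab2 whenever 1 library other than WT 3 was left out (highest adjusted p 0.151). Tab2 also lost its call with RLE scaling (adjusted p = 0.0523) and with the length trend removed (adjusted p = 0.0810), both in edgeR. With the replicate block, Tab2 (adjusted p = 0.0957, edgeR) and Ikbkg (adjusted p = 0.0523, edgeR) lost theirs.

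Of the receptors and signalling genes of tumour necrosis factor, 1 of 15 tested rose and 2 fell, with a median log2 fold change of -0.01, against 9.80% and 10.6% of all genes. Birc3, an apoptosis inhibitor and ubiquitin ligase, rose by 1.25 ± 0.16 (log2, SE, adjusted p = 0.00407, edgeR). Fadd, the adaptor of death receptors, had a log2 fold change of -0.61 ± 0.16 (adjusted p = 0.0319) and Sharpin, a subunit of the linear ubiquitin ligase, -0.51 ± 0.14 (adjusted p = 0.0408). The receptors Tnfrsf1a (log2 fold change -0.20, adjusted p = 0.533) and Tnfrsf1b (0.41, adjusted p = 0.122) did not pass. Fadd did not pass without any single library other than WT 2, nor Sharpin without any other than WT 1 (adjusted p up to 0.124).

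Among genes that restrain the pathway, 7 of 21 tested rose and 0 fell in edgeR, and the median log2 fold change was 0.37. By DESeq2 the counts were 9 and 0, by limma voom 7 and 0, and 10 and 1 at an unadjusted p under 0.05. Tnfaip3, the gene of the deubiquitinating enzyme A20, was at 8.38, 8.92 and 3.08 CPM in wild-type livers and at 33.6, 37.6 and 48.5 CPM in knockout livers. The log2 fold change of Tnfaip3 was 2.55 ± 0.38 (SE), adjusted p = 0.00736 (edgeR). Dusp1, a phosphatase that switches off p38 and JNK, rose from 34.8 ± 11.6 to 203 ± 20.4 CPM, and Zc3h12a, an RNase that degrades cytokine transcripts, from 5.03 ± 1.66 to 13.2 ± 1.23 CPM (SD, n = 3 per group). Nfkbia and Nfkbiz, inhibitor and cofactor of NF-kappa-B, rose as well, to 117 ± 14.0 and 78.5 ± 5.55 CPM from 40.01 ± 6.47 and 18.6 ± 3.95 CPM. These 5 genes passed in all 17 alternatives, and the remaining genes that rose were the A20-binding proteins Tnip1 and Tnip2. Irak3, the kinase-dead brake on MyD88 signalling, was at 3.97 ± 1.69 and 3.57 ± 0.469 CPM in wild-type and knockout livers (adjusted p = 0.783).

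Of 36 target genes tested, 17 rose, 5 fell and 14 did not pass, with a median log2 fold change of 0.69. Over all genes 9.80% were higher and 10.6% lower, so the count that fell is near the background. Those that rose were cytokine, chemokine, adhesion and NF-kappa-B genes and Cebpd, and those that fell were the acute-phase genes Saa1, Saa2, Saa3, Hp and Orm1. Cxcl10 rose by 3.58 ± 0.40 (log2, SE, adjusted p = 0.00338), the monocyte chemokines Ccl2 and Ccl7 by 2.62 ± 0.34 and 2.53 ± 0.34, the NF-kappa-B subunit gene Rel by 1.504 ± 0.22 and the macrophage growth factor gene Csf1 by 1.41 ± 0.16. The serum amyloid genes Saa1 and Saa2 had log2 fold changes of -1.85 ± 0.31 (adjusted p = 0.00843) and -1.87 ± 0.30 (adjusted p = 0.00792); their sequences are alike, so reads can be shared between them. Saa1 was at 7530, 5354 and 3486 CPM in wild-type livers and at 1560, 1837 and 1146 CPM in knockout livers. Hp (haptoglobin) fell by 1.29 ± 0.23 (adjusted p = 0.0104), Orm1 by 1.09 ± 0.30 (adjusted p = 0.0398) and Saa3 by 2.24 ± 0.64 (adjusted p = 0.0497, edgeR). Il6 and Il10, named after their values were seen, were low: Il6 had 5, 5 and 2 counts in the wild-type and 36, 33 and 73 in the knockout libraries, and Il10 had 1, 1 and 1 against 37, 41 and 25; both passed the filter through the knockout libraries. Hp lost its call without KO 1 (adjusted p = 0.0592), Orm1 whenever 1 library other than WT 3 was left out (highest adjusted p 0.128) and Saa3 in 10 of 17 alternatives (adjusted p up to 0.194), among them the fits without any 1 library other than WT 3. Marco, also a Kupffer cell marker, and Mmp9, also a neutrophil marker, stood in the target list too, at -1.62 (adjusted p = 0.0615) and -0.09 (adjusted p = 0.927).

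The calls of the ligand and accessory genes lay near the threshold. Il1a passed in 11 and Il1rap in 14 of 17 alternatives, and Il1b passed in 1 of 17.

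**Figure D5:**
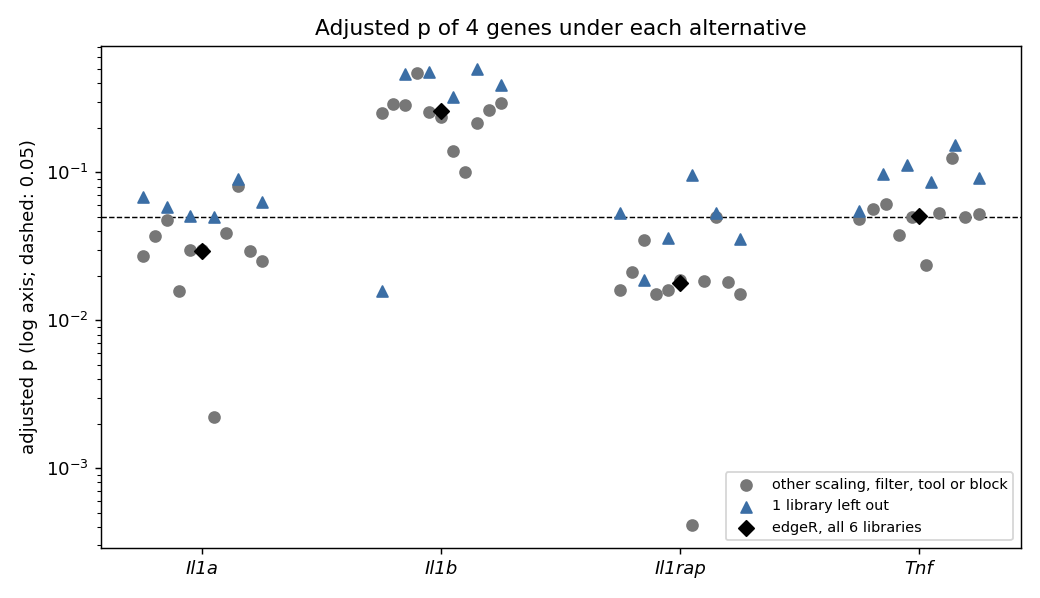
Adjusted p (vertical log axis) of Il1a, Il1b, Il1rap and Tnf with all 6 libraries in edgeR (black), with 1 library left out (blue) and under other scalings, filters, tools or the block (grey); the dashed line is 0.05. Il1b crosses the line downward once, at 0.0157 without WT 1.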

How the data were processed

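Poly(A)-enriched liver RNA was sequenced from 3 wild-type and 3 knockout samples, grouped by title. Per the submitters' processing notes, Trim Galore, STAR, Salmon and GRCm38 were used; for their versions, not given in the sources used here, no value is printed. Values in the deposited table are the authors' expected counts (estimated counts per gene, unscaled), and 8.38% to 9.32% of values per library were not whole. These were rounded, filtered with filterByExpr (minimum count 10), scaled by TMM and tested two-sided on genotype with edgeR 4.0.16 (glmQLFit, robust, R 4.3.3) over 14069 genes. Of 45706 rows, 563 matched no symbol and stayed in the fit. Positions and lengths come from GENCODE M21 (GRCm38). Standard errors come from the fold change and its quasi-likelihood F. They depend on the spread among libraries as well as on the number of counts. Il1r1, at 12300 to 30290 counts per library, had an SE of 0.30, and Il1a, at 102 to 311 counts, 0.24. The fit was also run on counts simulated from the kind of model it assumes, so that run does not check the model on these data. Members, lists and tests were chosen with earlier results of these data known. Named were all members, a fixed set of 13 pathway genes, and per list and direction up to 5 called genes of lowest p with mean log2 CPM of at least 0; genes like Il1b, Il1r1 and Tlr4 are the 3 of highest Pearson correlation among genes with mean log2 CPM of at least 1, predicted genes left out. A further 3 list symbols were matched by RefSeq synonym. Alternatives were 3 scalings, 2 filters, no robust weights, DESeq2 1.42.0, limma voom (3.58.1), the replicate block, mitochondrial and hemoglobin genes left out, the length trend removed, a threshold of 0.1, and each library left out. Motifs were searched in RefSeq windows (GRCm38.p6). Figures used matplotlib 3.10.9. Replicates of a group differed by 34.1 to 139 times counting noise.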

Additional observations from a re-analysis of the deposited data

How the results depend on the processing

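The number of members higher in knockout livers was 2 with all libraries, 0 to 1 with 1 library left out and 1 with the replicate block; it was 2 or 3 under every other alternative, and no member passed as lower under any. All genes passing numbered 2871, and 603 to 3080 with 1 library left out (603 without KO 1) and 1468 with the replicate block. Pathway genes higher numbered 31, and 19 to 35 with 1 library left out; those lower numbered 14, and 3 to 14 with 1 library left out and 7 with the replicate block. Same-numbered libraries had correlations of -0.08, 0.01 and -0.09 of their deviations from the group means. No library correlated best with its own number, so the numbers were not treated as pairs.

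Signs reversed for Il1r1, Tlr4, Ly96, Tirap, Irak1, Irak3 and Traf6, of which none passed with all libraries. Il1r1 was at -0.040 with upper-quartile scaling, -0.048 with library totals alone and -0.21 to 0.46 with 1 library left out (negative without WT 1, WT 3 or KO 1). Irak1 was at -0.023 with upper-quartile scaling, -0.051 with library totals alone and -0.019 to 0.067 with 1 library left out. With 1 library left out, Tlr4 ran from -0.56 to 0.076, Ly96 from -0.23 to 0.086, Tirap from -0.26 to 0.064, Irak3 from -0.47 to 0.055 and Traf6 from -0.059 to 0.024. Traf6 was at 0.024 with RLE and with DESeq2, 0.00060 with the stricter filter, 0.00048 with the replicate block and 0.15 with the length trend removed. Fewer libraries lower the power of each fit with 1 library left out. Calls over all genes rose to 3080 without WT 2 and fell to 603 without KO 1. The cause of any of these changes was not tested. Upper-quartile scaling moved the calls over all genes from 1379 higher and 1492 lower to 1187 and 1742, and RLE to 1454 and 1345; the largest shift of the median over all genes was to -0.10, with library totals alone. Tnf was left out by the stricter filter. Depth limits Tnf, at 4 to 44 counts per library.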
